A study of Homo sapiens with 4 samples.

Results

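The kinesins are the family of motor proteins that walk along microtubules or take them apart at their ends. Its members were taken by name, as the genes whose symbol begins with KIF or KIFC followed by a digit, with no use of their measured values. Of the 20263 genes in the deposited count table, 42 are kinesins. They were sorted by textbook role into 14 mitotic kinesins, 15 transport kinesins and 13 others. Most of the others work in cilia, in signalling or at microtubule ends in cells that are not dividing. KIF2A, which also acts at spindle poles, was counted with the others. This sorting, and the partner lists used below, were drawn up with earlier results of these data known. A further 13 matching symbols of the names table, all antisense transcripts, divergent transcripts, pseudogenes or the like, have no row and were not analysed here.

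The transcripts were measured by mRNA sequencing in MDA-MB-231, a long-established cell line from a human breast cancer that lacks the hormone receptors. Cells received YW-LF, a compound that the series title calls a ribociclib derivative, over 24 h (n = 2 libraries), or the solvent DMSO (n = 2 libraries), and both groups grew in DMEM with fetal bovine serum. The sources used here give no dose of YW-LF. Whether the libraries of a group stem from separate cultures is not stated, so the p-values reflect the spread between libraries only, and that spread may be technical.

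Mitotic kinesins build the bipolar spindle, move chromosomes on it and divide the cell, and most of them are made mainly in G2 and mitosis. Their genes are commonly switched off outside those phases through a promoter element called the CHR (cell cycle genes homology region), to which complexes of the MuvB core bind, often near CCAAT boxes bound by NF-Y. Most transport kinesins carry vesicles, organelles and protein complexes towards microtubule plus ends throughout the cell cycle. Ribociclib itself inhibits the cell cycle kinases CDK4 and CDK6, and such inhibitors are known for holding cells in G1.

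The promoter sequences are shown first, because the CHR letters named above stood in more mitotic than transport windows, a difference given as counts and not tested. RefSeq promoter windows (GRCh38.p14, 250 bases before to 50 bases after each start site) were matched by symbol for 12 of 12 mitotic, 10 of 13 transport and 5 of 8 other kinesins with enough counts to be tested. The core CHR letters TTTGAA, searched on both strands, stood in 9 of 12 mitotic windows (75%), in 1 of 10 transport windows (10%) and in 0 of 5 other windows. Among the 10998 tested genes with a window the share was 14%. All 9 mitotic matches began within 60 bases before or 40 bases after the start site, limits chosen after the positions were seen. Only 4.55% of the tested genes had a match there, and 0 of the 10 transport kinesins did, since the match of KIF5B lay 140 bases upstream. The stretches below show 12 bases on either side of the match in each kinesin, read along the strand on which it spells TTTGAA, with the match in capitals.
KIF11 (chr10:92593090-92593119, minus strand): tcggcgcctcaaTTTGAAaaagagacagag
KIF14 (chr1:200620733-200620762, plus strand): agaaggccgcaaTTTGAAtgggcgccccgc
KIF15 (chr3:44761747-44761776, minus strand): gatggccgcaaaTTTGAAtttggcgcttgg
KIF18A (chr11:28108149-28108178, minus strand): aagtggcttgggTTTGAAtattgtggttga
KIF18B (chr17:44947754-44947783, minus strand): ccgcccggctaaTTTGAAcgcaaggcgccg
KIF20B (chr10:89701602-89701631, plus strand): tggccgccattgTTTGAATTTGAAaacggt
KIF23 (chr15:69414282-69414311, plus strand): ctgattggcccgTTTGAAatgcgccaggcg
KIF4A (chrX:70290058-70290087, plus strand): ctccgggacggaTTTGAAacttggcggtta
KIFC1 (chr6:33391815-33391844, minus strand): acacccgccactTTTGAAttccaacggcca
KIF5B, transport kinesin (chr10:32056548-32056577, minus strand): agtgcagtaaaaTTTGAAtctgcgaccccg

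The mitotic kinesin windows also held CCAAT, on either strand, in 10 of 12 cases (83.3%), against 4 of 10 transport windows (40%) and 43.1% of the tested genes. Both elements together stood in 8 of 12 mitotic windows (66.7%) and in 7.58% of the tested genes. The mitotic windows without TTTGAA were those of KIF20A, KIF22 and KIF2C. The motifs were chosen with the data in hand and searched one by one. The related letters TTTAAA stood in 4 of 12 mitotic windows (33.3%), 1 of 10 transport windows (10%) and 11.2% of the tested genes. The mitotic ones were KIF20A, KIF2C, KIF14 and KIF23, of which KIF14 and KIF23 also hold TTTGAA. The E2F-type letters TTTNNCGC stood in 2 of 12 mitotic windows (16.7%), close to the 12.6% of the tested genes. The 120 bases before the start site show the arrangement in 3 mitotic kinesins and its absence in KIF1C, a transport kinesin. Matches to CCAAT or its complement and to TTTGAA or its complement are in capitals.
KIF11 (chr10:92593010-92593129, plus strand): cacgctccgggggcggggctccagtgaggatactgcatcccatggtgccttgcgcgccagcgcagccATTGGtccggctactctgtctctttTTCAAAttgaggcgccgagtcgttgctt
KIF4A (chrX:70289984-70290103, plus strand): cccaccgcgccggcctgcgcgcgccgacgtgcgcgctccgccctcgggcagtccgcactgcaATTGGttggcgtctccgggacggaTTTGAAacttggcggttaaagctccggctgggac
KIF18B (chr17:44947774-44947893, minus strand): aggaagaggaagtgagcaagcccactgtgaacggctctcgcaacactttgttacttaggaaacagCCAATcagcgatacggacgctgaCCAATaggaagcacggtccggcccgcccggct
KIF1C (chr17:4997830-4997949, plus strand): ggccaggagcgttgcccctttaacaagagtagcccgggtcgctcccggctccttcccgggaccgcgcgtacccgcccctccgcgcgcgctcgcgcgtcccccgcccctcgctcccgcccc
In KIF18B the TTTGAA match begins at base 3 after the start and so lies outside this stretch. A match of letters is a description of the sequence and was not tested for function here.

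The libraries held 34774542 to 40218240 counts, so 1 count equals 0.0199 to 0.0324 CPM (the count scaled to a common library size, with the trimmed mean of M-values, TMM). Replicates were far more alike in DMSO than in YW-LF: over 13816 genes the SD of the log2 replicate ratio was 0.605 in DMSO and 1.25 in YW-LF. Mitochondrially encoded genes took 3.14% to 21.7% of counts, most in DMSO replicate 2. Of the markers looked for in this line, VIM stood at 2122 to 4154 CPM, CD44 at 400.2 to 569 CPM and ANXA1 at 363 to 772 CPM. CAV1 stood at 575 CPM in both DMSO libraries and at 134 and 321 CPM in YW-LF (edgeR adjusted p = 0.236), and SPARC was near absent at 0.534 to 1.02 CPM. Of the markers looked for at low level, ESR1 reached 0.657 CPM, PGR 1.73 CPM and CDH1 0.259 CPM, but ERBB2 stood at 30.2 to 71.9 CPM. GATA3 had 9.03 and 21.4 CPM in DMSO and 3.08 and 4.01 CPM in YW-LF, with adjusted p-values of 0.142 in edgeR and 0.011 in DESeq2. The 5 markers of other cell types summed to 8.71 and 9.18 CPM in DMSO and to 8.71 and 2.52 CPM in YW-LF. Of these, CD3E had 0 counts in every library, PTPRC at most 0.588 CPM and PECAM1 at most 1.095 CPM, while COL1A1 gave 0.486 to 7.92 CPM and ALB, higher in YW-LF, at most 1.78 CPM. The part of these markers in the results below was not tested. Fold changes below are on the log2 scale of edgeR's quasi-likelihood test, with their standard error (SE). Adjusted p-values are Benjamini-Hochberg adjusted, in edgeR with all 4 libraries over the 13816 genes tested. DESeq2 gave an adjusted p to 13548 genes, and the edgeR fit without YW-LF replicate 1 covered 14091. At an adjusted p under 0.05 the edgeR test with all 4 libraries called 0% of genes in either direction, kinesins included. The counts of members below therefore use 2 weaker readings: an unadjusted p under 0.05, and both YW-LF libraries lying on the same side of both DMSO libraries.

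Most mitotic kinesins had less transcript in each YW-LF library than in either control, and most transport kinesins overlapped the controls, but with all 4 libraries no kinesin passed edgeR's adjusted test. Of the 12 mitotic kinesins tested, 9 lay below both DMSO libraries in both YW-LF libraries and 0 above, where 27.8% of all genes lay below and 28% above. The same count was 3 below and 2 above for the 13 transport kinesins tested, and 4 below and 1 above for the 8 others. The classes compared here were drawn up with earlier results of these data known. At an unadjusted p under 0.05, 7 mitotic kinesins were lower and 0 higher, 0 transport kinesins passed in either direction with all libraries, and 1 other kinesin (KIF24) was lower. Over all genes 9.01% were lower and 11.5% higher by this reading, 1245 and 1585 genes, and with library size as the only scaling 755 and 1489. The median log2 fold change was -1.24 for mitotic kinesins and -0.012 for transport kinesins, beside 0.063 over all genes. The transport median sat so close to 0 that its sign turned with the processing, from -0.31 without YW-LF replicate 1 to 0.31 without YW-LF replicate 2. The mitotic median lay between -1.07 and -1.36 when any 1 library was left out. The count of 7 fell when either DMSO library was left out and rose when either YW-LF library was left out. The count of lower genes over all genes fell and rose in the same way. With YW-LF replicate 1 left out, the edgeR test at an adjusted p under 0.05 called 7 mitotic kinesins lower, and of the transport kinesins KIF13A (adjusted p = 0.0024), KIF3C (0.0039) and KIF3A (0.0199) lower and KIF3B (0.040) higher. It then called 20.7% of all genes lower and 21% higher, with the lone treated library assumed to vary like the DMSO group. Without YW-LF replicate 2 the log2 fold changes of KIF13A, KIF3C and KIF3A were 0.061, 0.074 and 0.52, and that of KIF3B was 0.68. The mitotic median was then -1.22. DESeq2 called 4 mitotic kinesins lower (KIF18B, KIF20A, KIF11 and KIF23) and 0 kinesins higher at an adjusted p under 0.05, against 4.58% of genes lower and 6.02% higher.

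**Figure D1:**
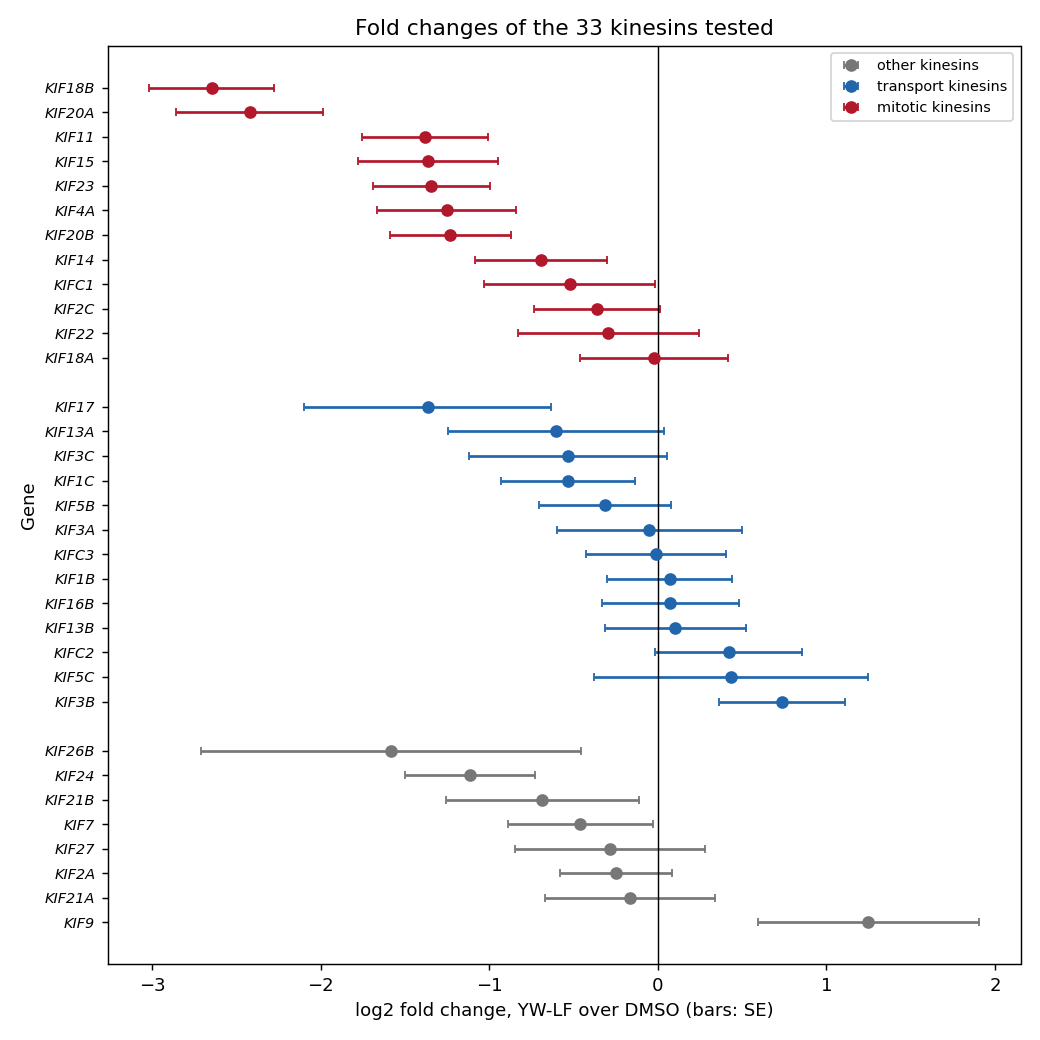
Log2 fold change (x axis, YW-LF over DMSO) of the 33 kinesins tested, one gene per line and sorted within each class; bars are the SE of edgeR's quasi-likelihood fit on 2 libraries per group. All 12 mitotic kinesins lie left of 0, from -2.65 for KIF18B to -0.023 for KIF18A, while 7 transport kinesins lie left and 6 right of it.

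The mitotic kinesins that act in the central spindle and in cytokinesis, the separation of the daughter cells, came first by role. KIF20A (MKLP2), which brings the chromosomal passenger complex to the central spindle, stood at 176 and 179 CPM in DMSO replicates 1 and 2 and at 42.7 and 23.5 CPM in YW-LF replicates 1 and 2. It was 5.35-fold lower (log2 fold change -2.42, SE 0.44), with an edgeR adjusted p of 0.121 and a DESeq2 adjusted p of 4.6e-05. KIF23 (MKLP1), the motor of the centralspindlin complex, stood at 100.1 and 101 CPM in DMSO against 36.2 and 43.1 CPM in YW-LF. The treated libraries of both genes lay far below the controls, which differed from each other by little. KIF23 was 2.54-fold lower (log2 fold change -1.34, SE 0.35), with adjusted p-values of 0.134 in edgeR and 0.032 in DESeq2.

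KIF4A, a chromokinesin that helps condense chromosomes and sets the length of central spindle microtubules, had 73.0 and 62.5 CPM in DMSO and 36.3 and 20.5 CPM in YW-LF. It was 2.38-fold lower (log2 fold change -1.25, SE 0.41, edgeR adjusted p = 0.179). Its near copy KIF4B had at most 6 counts in a library and was not tested, and since reads may be shared between such copies its few counts are uncertain. KIF20B (MPP1), needed late in cytokinesis, gave 135 and 103 CPM in DMSO and 48.3 and 53.3 CPM in YW-LF. For KIF14, which recruits citron kinase to the midbody, the values were 105 and 66.6 CPM in DMSO and 59.2 and 46.9 CPM in YW-LF. The groups did not overlap in either gene, but the 2 DMSO libraries of KIF14 were farther apart than the lower of them was from YW-LF replicate 1. The log2 fold changes were -1.23 (SE 0.36) for KIF20B and -0.70 (SE 0.39) for KIF14, with edgeR adjusted p-values of 0.153 and 0.353. Leaving out DMSO replicate 1 gave -0.32 for KIF14.

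Next came the motors that set up spindle poles. KIF11 (Eg5), which pushes the poles apart and is the target of spindle poisons of the monastrol type, stood at 163 and 152 CPM in DMSO and at 70.0 and 50.8 CPM in YW-LF. It was 2.61-fold lower (log2 fold change -1.38, SE 0.37), with adjusted p-values of 0.139 in edgeR and 0.027 in DESeq2. KIF15, which can keep spindles bipolar when KIF11 is inhibited, had 69.1 and 53.3 CPM in DMSO and 29.9 and 17.6 CPM in YW-LF. Both motors of the outward push were thus below the controls in each treated library. KIF15 had a log2 fold change of -1.36 (SE 0.42, edgeR adjusted p = 0.161, DESeq2 adjusted p = 0.054). KIFC1 (HSET), a minus-end motor that pulls poles together and clusters extra centrosomes, stood at 137 and 150 CPM in DMSO, 56.1 CPM in replicate 1 of YW-LF and 143 CPM in replicate 2. Only the first treated library of KIFC1 was below the controls and the second lay between them. The log2 fold change of KIFC1 was -0.52 (SE 0.51, edgeR adjusted p = 0.588), -1.37 without YW-LF replicate 2 and -0.0025 if replicate 1 was left out.

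The motors that position chromosomes and shorten microtubules held the largest and the smallest change of the mitotic class. KIF18B, which with KIF2C shortens the astral microtubules of the spindle, stood at 108 and 134 CPM in DMSO and 20.2 and 18.4 CPM in YW-LF. The gene spans chr17:44924709-44947711 in GENCODE 29 (GRCh38). It was 6.26-fold lower (log2 fold change -2.65, SE 0.37), with adjusted p-values of 0.12 in edgeR and 9.6e-07 in DESeq2, and the treated libraries were close together. KIF18A, its relative that dampens the movements of aligned chromosomes, had 54.5 and 42.4 CPM in DMSO, 32.0 CPM in replicate 1 of YW-LF and 63.5 CPM in replicate 2. The treated values of KIF18A lay on either side of the controls, with a log2 fold change of -0.023 (SE 0.44), 0.38 without YW-LF replicate 1 and 0.18 if DMSO replicate 1 was left out. KIF2C (MCAK), which takes apart microtubules that are wrongly attached to kinetochores, stood at 133 and 116 CPM in DMSO and 80.5 and 114 CPM in YW-LF. KIF22 (Kid), which pushes chromosome arms away from the poles, had 119 and 114 CPM in DMSO, 48.6 CPM in replicate 1 of YW-LF and 141 CPM in replicate 2. KIF2C barely cleared the controls in YW-LF replicate 2, and KIF22 was above them there. The log2 fold changes were -0.36 (SE 0.37) for KIF2C and -0.29 (SE 0.54) for KIF22, the latter 0.27 without YW-LF replicate 1 and -1.27 if the second was left out instead. KIF2B, the remaining member, had at most 2 counts in a library and was not tested.

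**Figure D2:**
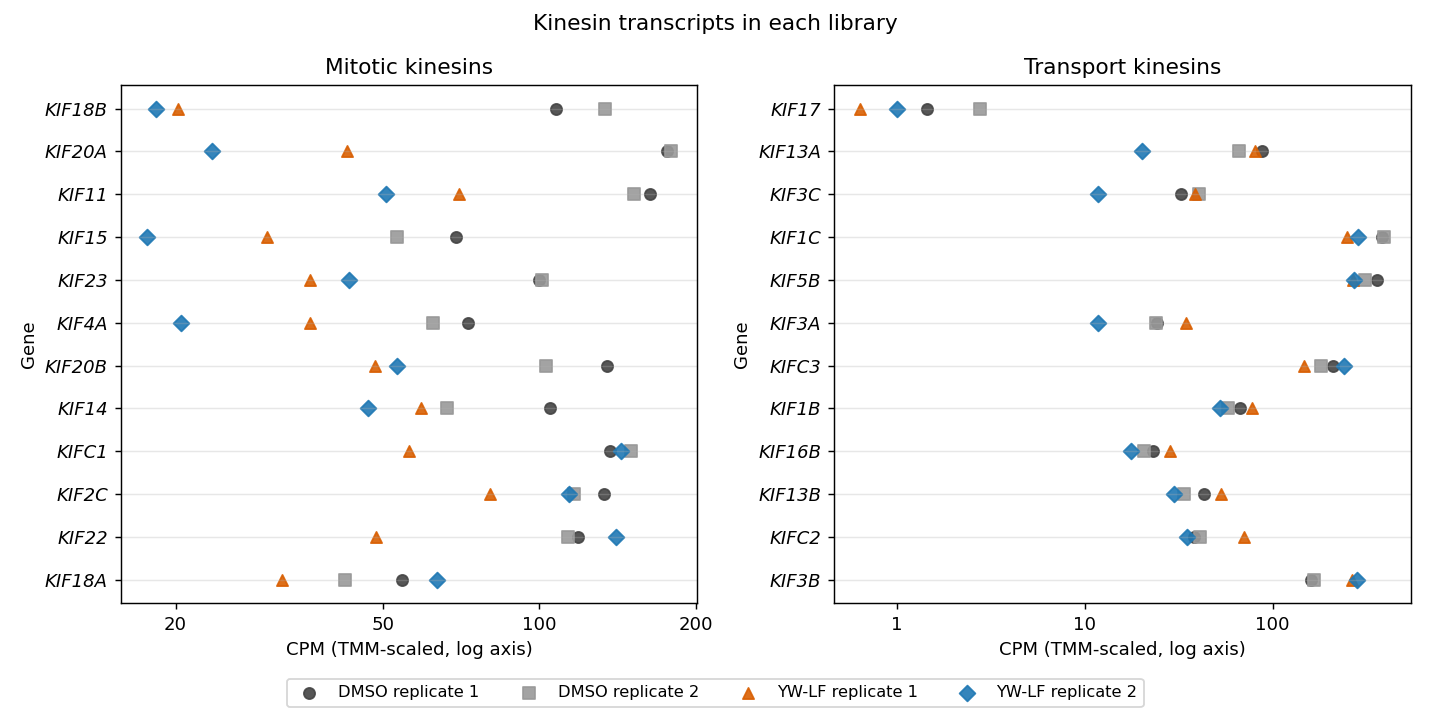
CPM of each mitotic (left) and transport (right) kinesin with a mean of at least 1 CPM in the 4 libraries, on a log axis; each point is 1 library. The YW-LF points of KIF18B, at 20.2 and 18.4 CPM, stand far left of DMSO at 108 and 134 CPM, whereas those of KIFC1, KIF22 and KIF18A are far apart from each other.

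Mitotic kinesins with TTTGAA near the start had log2 fold changes from -2.65 (KIF18B) to -0.023 (KIF18A), with KIFC1 at -0.52. Those without the letters had -2.42 (KIF20A), -0.36 (KIF2C) and -0.29 (KIF22). A link between the letters and the fold change was not tested. Among the 7 mitotic kinesins at an unadjusted p under 0.05, KIF20A was the only one without a TTTGAA match. Of the tested ones that did not pass, KIF14, KIFC1 and KIF18A also had a match, and KIF2C and KIF22 had none.

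Among the transport kinesins, the conventional kinesin heavy chain KIF5B, which carries mitochondria, vesicles and RNA, stood at 359 and 312 CPM in DMSO and 268 and 272 CPM in YW-LF. Its log2 fold change was -0.31 (SE 0.39, edgeR adjusted p = 0.682), although both treated libraries were below both controls. The neuronal forms KIF5A and KIF5C had at most 2 and 26 counts in a library. KIF5C was tested and stood at 0.321 and 0.329 CPM in DMSO and 0.517 and 0.356 CPM in YW-LF, and KIF5A was not tested.

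Of the heterotrimeric kinesin motors, which drive transport along cilia and in the cytoplasm, only KIF3B lay above both controls in each treated library. A difference between the subunits was not tested. KIF3B stood at 160 and 166 CPM in DMSO and at 263 and 281 CPM in YW-LF, 1.67-fold higher (log2 fold change 0.74, SE 0.37, edgeR adjusted p = 0.310). Its treated libraries agreed closely and lay above both controls, which made it the transport kinesin of highest fold change. KIF3A, the partner of KIF3B, had 24.2 and 24.1 CPM in DMSO, 34.8 CPM in replicate 1 of YW-LF and 11.8 CPM in replicate 2. KIF3C, the alternative partner of KIF3A, had 32.5 and 40.8 CPM in DMSO, 38.8 CPM in replicate 1 of YW-LF and 11.7 CPM in replicate 2. Both of these genes were lowest in YW-LF replicate 2, while YW-LF replicate 1 was above the controls for KIF3A and between them for KIF3C. Without YW-LF replicate 2 the log2 fold changes were 0.52 for KIF3A and 0.074 for KIF3C, and those without YW-LF replicate 1 were -1.04 and -1.65. KIF17, a homodimeric motor of the same subfamily, was sparse at 1.44 and 2.78 CPM in DMSO and 0.637 and 1.003 CPM in YW-LF, a log2 fold change of -1.37 (SE 0.73).

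The vesicle motors of the kinesin-3 group came next. KIF1C, which carries integrins and dense core vesicles, was the most abundant of them at 381 and 393 CPM in DMSO and 250.2 and 285 CPM in YW-LF, a log2 fold change of -0.53 (SE 0.40). Its groups did not overlap, but its edgeR adjusted p was 0.482. KIF13A, a carrier of recycling endosomes, stood at 87.5 and 66.2 CPM in DMSO, 80.9 CPM in replicate 1 of YW-LF and 20.2 CPM in replicate 2. The second treated library of KIF13A was thus far below every other library, and its log2 fold change was 0.061 without that library and -1.94 if YW-LF replicate 1 was left out instead. KIF1B, a carrier of mitochondria and synaptic vesicle precursors, had 67.0 and 57.7 CPM in DMSO and 78.1 and 52.6 CPM in YW-LF. KIF13B had 43.1 and 33.7 CPM in DMSO and 52.9 and 29.7 CPM in YW-LF. KIF16B, a motor of early endosomes, had 23.0 and 20.7 CPM in DMSO and 28.3 and 17.7 CPM in YW-LF. In these last 3 genes YW-LF replicate 1 was above both controls and YW-LF replicate 2 below both. Their log2 fold changes of 0.069, 0.104 and 0.075 became -0.25, -0.38 and -0.31 if YW-LF replicate 1 was left out, and -0.049, -0.075 and -0.016 if DMSO replicate 2 was. KIF1A, a neuronal motor, had at most 4 counts in a library and was not tested.

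The C-terminal motors outside mitosis were KIFC3, which acts at cell junctions and in vesicle transport, and KIFC2. KIFC3 stood at 209 and 181 CPM in DMSO, 147 CPM in replicate 1 of YW-LF and 240 CPM in replicate 2, with a log2 fold change of -0.012 (SE 0.42). That value was 0.29 without YW-LF replicate 1 and 0.10 if DMSO replicate 1 was left out. KIFC2 had 38.2 and 40.8 CPM in DMSO, 70.6 CPM in replicate 1 of YW-LF and 35.1 CPM in replicate 2. Here the order of the treated libraries was the reverse of that in KIFC3. The log2 fold change of KIFC2 was 0.42 (SE 0.43) and -0.18 without YW-LF replicate 1.

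Among the other kinesins, KIF24, a centriole protein that holds back the growth of cilia, was the one at an unadjusted p under 0.05. It stood at 36.9 and 35.9 CPM in DMSO and 13.7 and 19.97 CPM in YW-LF, 2.16-fold lower (log2 fold change -1.11, SE 0.39, edgeR adjusted p = 0.192). KIF2A, a microtubule depolymerase of spindle poles and of neurons, had 61.5 and 61.4 CPM in DMSO and 51.2 and 52.3 CPM in YW-LF. Its replicates nearly coincided within each group, and the log2 fold change was small at -0.25 (SE 0.33). KIF9, a motor of motile cilia, was at 4.89 and 4.75 CPM in DMSO, 5.33 CPM in replicate 1 of YW-LF and 17.6 CPM in replicate 2. Its log2 fold change of 1.25 (SE 0.66) was 0.13 without YW-LF replicate 2 and 1.86 if replicate 1 was left out. The names table lists an antisense gene for KIF9, KIF1C, KIF5C, KIF23 and some others, and no source used here says whether counting used the strand, so reads of such pairs cannot be told apart.

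KIF7, the regulator of Hedgehog signalling at the tip of cilia, had 22.3 and 21.7 CPM in DMSO and 20.4 and 11.6 CPM in YW-LF. Its relative KIF27 had 18.5 and 13.9 CPM in DMSO and 19.5 and 7.06 CPM in YW-LF. KIF21A, which curbs microtubule growth at the cell cortex, had 29.8 and 23.3 CPM in DMSO and 33.6 and 13.7 CPM in YW-LF. In all 3, YW-LF replicate 2 was the lowest library. Without it the log2 fold changes of KIF27 and KIF21A were 0.26 and 0.33, against -0.28 and -0.16 with all libraries, and the latter was 0.039 without DMSO replicate 1. KIF21B stood at 3.79 and 4.24 CPM in DMSO and 2.79 and 2.201 CPM in YW-LF, and KIF26B at 0.162 to 1.67 CPM. Of the 5 others not tested, KIF6, KIF12 and KIF19 had 0 counts in every library, which allows at most 0.0597 to 0.0971 CPM by counting error alone (3 counts), and KIF25 and KIF26A had at most 3 and 6 counts.

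The levels of single kinesins were compared per kilobase of the longest annotated transcript. Those of the classes, further on, are in CPM not divided by length. The median length was 3970 nt for the mitotic and 6103 nt for the transport kinesins tested. In DMSO the highest means were those of KIF5B (57.1 CPM per kb), KIFC3 (56.8), KIF20A (55.4), KIFC1 (53.0) and KIF1C (48.9), and the first 4 exchanged places between the DMSO libraries. KIF20A went from rank 3 of 33 in DMSO to rank 13 in YW-LF, at 10.4 CPM per kb, and KIF18B from rank 9 to rank 22, at 4.57 CPM per kb. KIF3B moved the other way, from rank 11 at 26.8 CPM per kb to rank 3 at 44.6 CPM per kb. The median log2 CPM of the mitotic class exceeded that of the transport class by 1.39 and 1.41 in DMSO, by 0.716 in replicate 2 of YW-LF, and was below it in replicate 1 (-0.635). The share of mitotic kinesins in the summed CPM of both classes was 49.0% and 48.7% in the DMSO libraries and 29.9% and 36.9% in the YW-LF libraries. Those sums were 1372 and 1274 CPM for the mitotic class in DMSO and 560 and 736 CPM in YW-LF. The summed transport class was at 1425 and 1339 CPM in DMSO and 1314 and 1257 CPM in YW-LF. In bulk RNA such as this, fewer cells in mitosis and less kinesin RNA per cell cannot be told apart.

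The treated libraries differed from each other, and transcript length moved with that difference. Between the YW-LF replicates 10 of 33 kinesins differed more than 2-fold, and between the DMSO replicates 1 did, the sparse KIF26B. Against the DMSO mean the median of the mitotic kinesins was -1.21 in the first YW-LF library and -1.19 in the second, on the log2 CPM scale. The transport median was 0.33 in the first and -0.30 in the second. Across the 33 kinesins the log2 ratio of YW-LF replicate 2 to replicate 1 had a Spearman correlation with transcript length of -0.465, and of -0.109 for the DMSO pair. All of these points come from the same 4 libraries. Over all genes tested the median of the same YW-LF ratio went from 0.375 among the shortest transcripts (207 to 2362 nt) to -0.282 among the longest (5432 nt and more), with genes cut into 4 bins of like size. In the bin of longest transcripts lay 9 transport and 2 mitotic kinesins, and 0 kinesins lay in the bin of shortest ones. The part of length in these results was not tested beyond the offset below. The mitotic kinesins at an unadjusted p under 0.05 had transcripts of 3201 to 6419 nt, and the other 5 of 2505 to 7274 nt. With an offset for length and GC content in each library the mitotic median was -1.21 and the transport median 0.093.

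**Figure D3:**
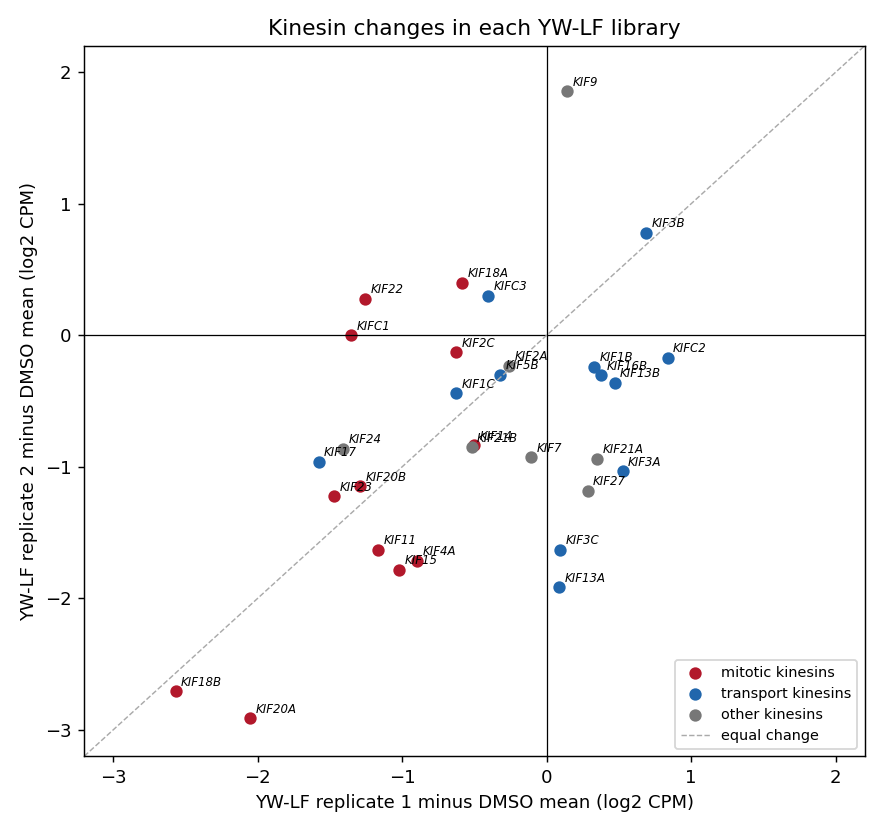
Log2 CPM of each kinesin (mean of at least 1 CPM) minus the DMSO mean, in YW-LF replicate 1 (x axis) and YW-LF replicate 2 (y axis); each point is a gene. KIF18B and KIF20A lie far down in both libraries, and KIF13A and KIF3C, at -1.91 and -1.63 on the y axis, only in the second.

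**Figure D4:**
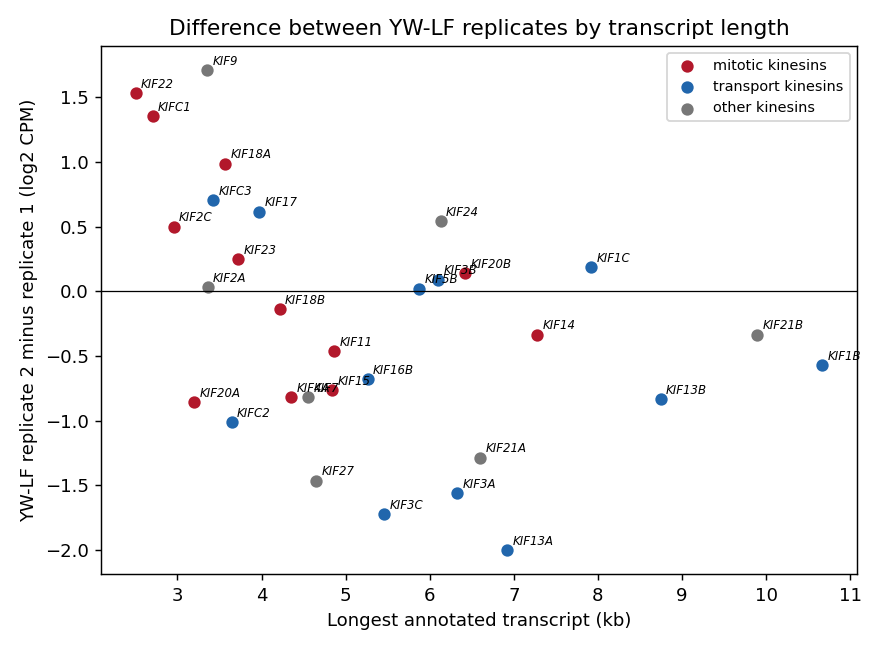
Log2 CPM difference between YW-LF replicate 2 and replicate 1 (y axis) against the length of the longest annotated transcript (x axis, kb); each point is a kinesin with a mean of at least 1 CPM. The short KIF22 and KIFC1 lie at 1.53 and 1.35, and KIF13A, of 6924 nt, lies at -2.00.

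Proteins that work with the mitotic kinesins formed a list of 20 partners, all tested and drawn up with earlier results of these data known. At an adjusted p under 0.05 edgeR called 0 of them, and DESeq2 called 7 lower and 0 higher. Over all genes DESeq2 called 4.58% lower and 6.02% higher. Of the 20 partners, 19 were below both controls in each treated library and 0 above, against 27.8% and 28% of all genes. At an unadjusted p under 0.05, 10 were lower, 0 higher and 10 passed in neither direction, against 9.01% lower and 11.5% higher over all genes. Their median log2 fold change was -0.96. The kinetochore kinesin CENPE, whose symbol falls outside the naming rule, stood at 158 and 120 CPM in DMSO and 39.9 and 42.4 CPM in YW-LF, a log2 fold change of -1.75 (SE 0.37). INCENP, the scaffold of the chromosomal passenger complex that KIF20A carries, had 149 and 178 CPM in DMSO and 39.4 and 48.1 CPM in YW-LF (-1.90, SE 0.37). Also among the 4 of lowest p were GTSE1, which restrains KIF2C (-1.76, SE 0.38), and PLK1, a kinase that regulates KIF20A and KIF2C (-1.69, SE 0.38). Each of these 4 had an edgeR adjusted p of 0.121.

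Of 18 transport partners tested, 4 lay below and 6 above both DMSO libraries, near the shares of 27.8% and 28% over all genes. At an unadjusted p under 0.05, 1 was lower and 1 higher, where all genes gave 9.01% and 11.5%. The median log2 fold change of these partners was 0.18, with 12 positive and 6 negative. The kinesin light chains, which bind cargo to KIF5B, stood at 0.22 (KLC1, SE 0.43), 0.14 (KLC2, SE 0.43), 0.31 (KLC3, SE 0.88) and 0.63 (KLC4, SE 0.41). Among those of lowest p were TRAK1, the mitochondrial adaptor of KIF5 (-1.28, SE 0.44), the adaptor MAPK8IP3 (0.97, SE 0.42) and PLEKHM2, a lysosomal adaptor that binds kinesin light chains (0.69, SE 0.37). TRAK1 had 95.9 and 105 CPM in DMSO and 55.3 and 27.5 CPM in YW-LF, so both treated libraries were below both controls. Dynein and its activator dynactin move cargo in the direction opposite to that of most transport kinesins. Their list held 25 tested genes, among them PAFAH1B1, NDE1, NDEL1 and BICD2, which work with the complexes and are not subunits of them. Of these 25 genes, 2 lay below and 10 above both DMSO libraries, against 27.8% and 28% of all genes. With 15 positive and 10 negative log2 fold changes the median was 0.108, and 0 genes passed at an unadjusted p under 0.05. The 4 of lowest p there were the dynactin genes ACTR1B (1.17, SE 0.49), ACTR10 (0.78, SE 0.34), DCTN6 (0.97, SE 0.42) and the light chain DYNLT1 (0.90, SE 0.41).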

How the data were processed

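Read counts per gene were deposited by the authors as whole numbers that had not been normalized, judging from the values. No source used here names the aligner, counter or annotation. Mouse genome builds appear in the submitters' processing notes, yet all 20263 identifiers are human Ensembl genes and were used as such. Symbols came from a names table (20148 matched, the rest held 0.102% of counts). Transcript lengths came from GENCODE 29 (GRCh38, longest transcript). A further 2 columns of per-sample values match no label and were not used. Promoters came from RefSeq tables of GRCh38.p14.

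Differences were tested with edgeR 4.0.16 (R 4.3.3): filterByExpr (13816 genes), TMM scaling and the quasi-likelihood F-test over all 4 libraries without covariates. SE is the log2 fold change divided by the square root of F. Log2 CPM used a prior count of 2. The fit was tested on simulated data. Alternatives were DESeq2 1.42.0, limma-voom 3.58.1, other scalings and filters, robust dispersion, removal of the 13 mitochondrial genes, a length and GC offset (loess span 0.3), the replicate block, KIF2A or KIF21A and KIF21B moved between classes, and leaving out each library.

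The members and lists were chosen with earlier results of these data known. The rule names every kinesin, with values by library where it was tested at a mean of at least 1 CPM, CENPE, the light chains and the 4 partners of lowest p per list. A partner gene that the rule names is not reported here. Replicates of a group were no copies of each other (chi-square of 246 and 570 for each degree of freedom).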

Additional observations from a re-analysis of the deposited data

How the results depend on the processing

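All 12 mitotic kinesins stayed below 0 in every alternative that kept all 4 libraries, with a class median of -1.14 to -1.26. Leaving out 1 library gave medians of -1.07 to -1.36 for mitotic and -0.31 to 0.31 for transport kinesins, and 2 to 10 (7 with all libraries) mitotic kinesins at an unadjusted p under 0.05. The transport median turned positive with DESeq2 (0.00054), DESeq2 size factors in edgeR (0.00056), library size only (0.17), no count filter (0.054) and the length and GC offset (0.093). Genes called over all genes, 0 in each direction in the main test, were 621 lower and 816 higher in DESeq2, 120 and 155 without a count filter, and 16 to 2919 lower and 46 to 2963 higher when a library was left out. With the replicate number as a block they were 145 and 186, of which KIF18B (log2 fold change -2.64) and KIF20A (-2.48) were the mitotic kinesins. The labels do not say whether same-numbered libraries belong together, and their deviations correlated at 0.037 across genes. That value cannot decide it, since a shared part may be small beside the other differences between replicates. Of 31 kinesins with values by library, 19 kept their sign in every alternative, 12 turned sign when a library was left out and 3 in another alternative. KIF3A (0.17) and KIF21A (0.021) turned with library size only, and KIFC3 with DESeq2 (0.00054), its size factors (0.00056) and the length and GC offset (0.093). Leave-out ranges were -1.94 to 0.061 for KIF13A, -0.38 to 0.45 for KIF13B, -0.31 to 0.36 for KIF16B, -0.61 to 0.38 for KIF18A, -0.25 to 0.31 for KIF1B, -0.96 to 0.33 for KIF21A, -1.27 to 0.27 for KIF22, -1.21 to 0.26 for KIF27, -1.04 to 0.52 for KIF3A, -1.65 to 0.074 for KIF3C, -0.18 to 0.83 for KIFC2 and -0.42 to 0.29 for KIFC3. The cause was not tested.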
